A study of Homo sapiens with 16 samples.

Results

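The class I olfactory receptors were followed in a ChIP-seq experiment on H3K9me2, the dimethylated form of lysine 9 of histone H3 and a mark of silent chromatin. The members are all genes on chromosome 11 whose symbols belong to the families OR51, OR52 and OR56. The table of start windows held 102 such genes of 68302 genes in all, with 44 genes in OR51, 49 in OR52 and 9 in OR56. Of these, 45 carry a pseudogene name and 57 do not. Each window reaches 1000 bp to either side of an annotated transcription start, and the reads of a gene are the sum over its distinct windows. There were 133 distinct windows, so that 79 genes had 1 window and 23 genes had several.

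The cells were BJ-5ta, an established line of human foreskin fibroblasts immortalized with telomerase. Wild-type cells were compared with ΔLEO1 cells, a single clone in which CRISPR/Cas9 guides had disrupted LEO1, a subunit of the PAF1 complex that travels with RNA polymerase II. Each genotype was grown in medium with 10% serum, in which cells divide, or was held for 10 days in medium with 0.1% serum, which makes them quiescent. There were 2 ChIP and 2 input libraries, A and B, of each of the 4 combinations, where input is the same sonicated chromatin sequenced without an antibody. The labels do not say whether A and B came from separate cultures, so p-values measure only the spread between these libraries, which may be technical. The labels call the antibody H3, and the methods of the study name an H3K9me2 antibody. Expression was not measured in these tables, and reads over LEO1 windows do not check the knockout.

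Olfactory receptors are receptors with several membrane-spanning helices that couple to a G protein and detect odorants in the neurons of the nose. Class I receptors are the older class, shared with fish, and in humans they form a single cluster around the β-globin genes, whereas class II receptors are spread over many clusters. A mature olfactory neuron transcribes only a single receptor gene and keeps the others in silent chromatin marked by methylated H3K9. The coding part of a receptor gene is a single exon, and its start can lie some distance upstream of that exon. Fibroblasts are not known as a site where these genes act, although OR51E2 and OR51E1 are known in prostate and other tissues outside the nose.

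The cluster ran from base 4367386 to base 6200224 of chromosome 11 (hg38), which is 1833 kb, with 53 members below HBB, the gene of adult β-globin, and 49 above it. ΔLEO1 10% serum ChIP replicate A held 54 reads over all start windows and 0 over the members, and it was left out, so that ΔLEO1 in 10% serum has 1 ChIP library. The 7 other ChIP libraries held 1895572 to 3266061 reads over distinct windows and 2245 to 3484 reads over the members. The 8 inputs held 2844483 to 7947289 and 1743 to 4636 reads. Levels are given in CPM, the read count scaled in the usual way to the window total of its library, with the TMM factor (trimmed mean of M-values) applied. These factors came from all 15 libraries together, whereas the ChIP fits of genotype and serum below used factors of their own. As a check of the mark, 14 of 15 genes that fibroblasts express, such as COL1A1 and VIM, and 9 of 9 tested housekeeping genes, such as GAPDH, were lower in ChIP than in input. COL6A1 was the exception.

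The promoters of the members at the ends of the range are shown first, to show the letters at the highest and lowest members that have an entry. The sequences are from RefSeq (GRCh38.p14), 250 bases before the start, 5′ to 3′ on the strand of the gene. Capitals mark every CpG dinucleotide and every match to TATAAA or CCCNNGGG on either strand, so that TTTATAAA holds TATAAA on both strands. TAATTA was also searched. The RefSeq table used here held promoters of 38 of the 102 members. OR52K2 is the only one of the 5 highest members with an entry, OR56A5 is the next highest with one, and OR52N2 and OR52E5 are the lowest.
OR52K2, chr11:4449045-4449294, plus strand: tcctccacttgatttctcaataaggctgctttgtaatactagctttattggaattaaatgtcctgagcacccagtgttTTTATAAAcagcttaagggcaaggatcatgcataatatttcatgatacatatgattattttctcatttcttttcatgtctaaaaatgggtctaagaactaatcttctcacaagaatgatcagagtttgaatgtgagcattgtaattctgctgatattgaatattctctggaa
OR56A5, chr11:5968495-5968744, minus strand: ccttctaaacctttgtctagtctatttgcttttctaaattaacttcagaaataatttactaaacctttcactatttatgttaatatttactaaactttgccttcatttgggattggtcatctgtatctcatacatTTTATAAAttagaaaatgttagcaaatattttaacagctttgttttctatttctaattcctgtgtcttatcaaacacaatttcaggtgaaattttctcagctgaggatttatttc
OR52N2, chr11:5808674-5808923, plus strand: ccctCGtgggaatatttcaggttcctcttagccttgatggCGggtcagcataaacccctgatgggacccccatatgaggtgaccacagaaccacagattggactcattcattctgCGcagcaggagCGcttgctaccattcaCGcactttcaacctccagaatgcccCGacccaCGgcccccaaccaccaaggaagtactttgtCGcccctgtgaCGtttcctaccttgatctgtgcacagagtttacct
OR52E5, chr11:5892958-5893207, plus strand: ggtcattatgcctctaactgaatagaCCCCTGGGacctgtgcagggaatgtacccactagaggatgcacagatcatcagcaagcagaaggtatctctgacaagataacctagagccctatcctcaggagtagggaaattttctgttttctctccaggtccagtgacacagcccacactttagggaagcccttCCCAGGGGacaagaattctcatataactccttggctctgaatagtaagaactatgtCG

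The high promoters of OR52K2 and OR56A5 held 36.7% and 30.0% G and C over the 300 bases of the RefSeq entry, which adds 50 bases after the start, and 0 CpG. OR52N2, the lowest member, held 55.3% and 14 CpG, the highest CpG count among the 38 promoters. OR52E5, the second lowest, held 48.0% and 2 CpG, and both of its longer capital runs match CCCNNGGG. The members' median was 40% G and C and 1 CpG, against 58.3% and 14 CpG over 27305 promoters. A match to TATAAA stood in 16 of 38 member promoters (42.1%) and in 12% of all promoters, and a match to TAATTA, a core letter run of homeodomain motifs, in 6 of 38 (15.8%) and 5.0%. CCCNNGGG stood in 4 of 38 (10.5%) and 18.6% of all. In class II receptors the shares were 32.6% for TATAAA, 26.3% for TAATTA and 6.3% for CCCNNGGG, and in all promoters with no more G and C than the highest member they were 21.5%, 9.6% and 7.8%. Against the latter, the members' share of CCCNNGGG was not lower, and with 4 matches no direction can be read. OR51L1 (log2 ChIP over input -0.46, not called lower) did not resemble OR52N2, with 39.7% G and C and 1 CpG. The members called lower other than OR52N2 and OR52E5 had no promoter entry. OR52I2 (1.04), the third highest member with an entry, held 49.3%. Such matches describe the letters and do not show that a factor binds.

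Class I receptor windows held more ChIP than input. In the fit of 15 libraries by edgeR's quasi-likelihood test, 101 members were tested, of which 80 were higher and 7 lower in ChIP at an adjusted p under 0.05, and 14 did not pass. Over all 57627 genes tested, 73.1% were called, 39.3% higher and 33.8% lower. The median log2 ChIP over input was 0.72 in the members, with quartiles of 0.39 and 0.92, and 0.13 in all genes. The members above the median of all genes were 90 of 101. This comparison depends on how ChIP and input are scaled. With totals of the peak table as library sizes, the median was -0.86 in the members and -1.42 in all genes, and 89 of 101 members still lay above the latter. All 7 ChIP libraries lay above all 8 inputs for 37 members, against 14.7% of all genes, and all 7 lay below for OR52N2 and OR52A4P only, against 20.4% of all genes.

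**Figure D1:**
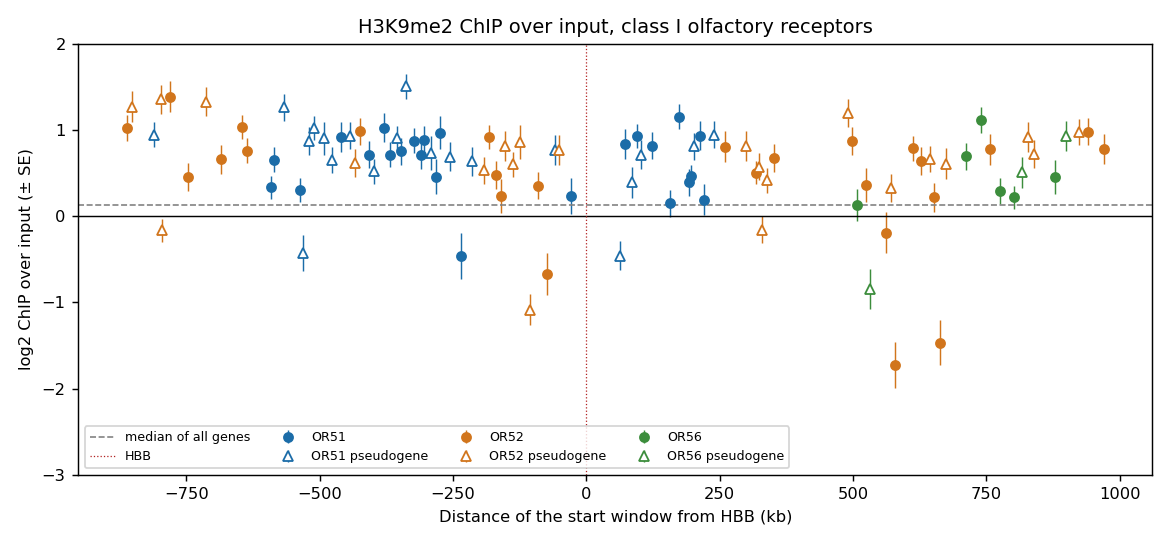
Log2 ChIP over input (± SE, 15 libraries) of each of the 101 tested members, coloured by family, with open triangles for pseudogenes. The x axis is the distance in kb from HBB to the middle of the span of a gene's windows, which may hold no window where a gene has several. Most members sit above the dashed median of all genes at 0.13, and the lowest points are OR52N2 at -1.73 and OR52E5 at -1.47, both above HBB.

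The 3 families and the pseudogenes are given by their counts. Of the 44 OR51 genes, 38 were higher and 2 lower, with a median log2 of 0.74. Among the 48 tested OR52 genes, 37 were higher and 4 lower, with a median of 0.67. OR56 had 5 higher and 1 lower of 9, with a median of 0.46. Pseudogenes had a median of 0.73, with 38 of 45 higher, and the other members a median of 0.69, with 42 of 56 higher, and the quartiles overlapped (0.54 to 0.93 in pseudogenes and 0.33 to 0.88 in the others). Members below HBB had a median of 0.75 and those above a median of 0.65. These differences between subgroups were not tested. The order of the members was shared by replicates in ChIP more than in input: over the 79 members with 1 window, Pearson's r of log2(CPM + 1) between A and B was 0.73 to 0.82 in ChIP and 0.069 to 0.179 in input, across genes.

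The 5 highest members all lie below HBB, and all but OR52K2 are pseudogenes. OR51A6P (chr11:4889596-4891596) had a lowest, median and highest ChIP level of 11.7, 13.5 and 16.1 CPM over 7 libraries, and 3.57, 4.47 and 6.25 CPM over 8 inputs. The ranges of ChIP and input did not overlap, and log2 ChIP over input was 1.51 ± 0.15 (SE), with an adjusted p of 1.63e-09. OR52K2 (chr11:4448295-4450295) had 9.25, 12.4 and 17.2 CPM in ChIP and 2.29, 4.25 and 7.20 CPM in input, again without overlap (log2 1.39 ± 0.18). OR52P2P (chr11:4431277-4433277) reached 9.82 to 14.4 CPM in ChIP against 2.74 to 6.11 CPM in input (log2 1.36 ± 0.17). OR52M2P had 7.06 to 15.1 CPM against 2.69 to 4.97 CPM (log2 1.33 ± 0.17), and OR52B3P 10.1 to 17.5 CPM against 2.29 to 8.65 CPM (log2 1.27 ± 0.18). Each of these ChIP libraries was above every input library of the same gene. By p-value, the members that led the list also included OR51A9P (log2 1.26), OR52U1P (1.20), OR51J1 (1.16), OR56A5 (1.12) and OR51C4P (1.03).

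At the other end, members with little ChIP were still well covered in input. Members with 1 window had a median of 5.14 CPM in input and 8.75 CPM in ChIP. OR52N2 (chr11:5807924-5809924) had 3, 7, 3, 5, 4, 1 and 3 reads in the ChIP libraries of wild type 10% A and B, ΔLEO1 10% B, wild type 0.1% A and B, and ΔLEO1 0.1% A and B. That was 0.273 to 2.35 CPM, below the 3.51 to 7.29 CPM of the inputs in every library, with an input median of 5.53 CPM, and log2 ChIP over input was -1.73 ± 0.27 (SE, adjusted p = 3.27e-07). OR52E5 (chr11:5892208-5894208) had 4, 4, 6, 3, 2, 5 and 4 reads in the same order, or 0.753 to 2.92 CPM against 2.57 to 7.02 CPM in input (log2 -1.47 ± 0.26). Its highest ChIP library overlapped the lowest input. OR52A4P had 2.35 to 8.04 CPM in ChIP and 8.07 to 11.8 CPM in input (log2 -1.09 ± 0.18). OR56B2P (log2 -0.84 ± 0.23) and OR52A1 (log2 -0.67 ± 0.24) followed, and OR51AB1P (-0.46 ± 0.17) and OR51C1P (-0.42 ± 0.21) were the other members called lower. When library totals were used without TMM, 4 members were called lower in place of 7, and OR52A1 (log2 -0.44) was among those that lost the call. OR52N5, with 2 windows (chr11:5777667-5779667 and chr11:5782355-5784355), had 0 reads in all 16 libraries, while members with 1 window had 148 to 271 reads summed over the 8 inputs. It could not be tested, it was the only member at 0, and the cause was not tested. Of genes on assembled chromosomes, 2580 of 61843 had 0 reads in every input.

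Where a gene had start windows apart from each other, the level could differ within the gene. There were 15 members with 2 windows that do not overlap, taking the first and the last, and the downstream window, which lies closer to the end of the gene, had the higher ratio of ChIP to input in 12 of them. Over all genes with such a pair, the downstream window was the higher in 64.1% of 16119 genes, and for class II receptors on chromosome 11 in 16 of 20. An exact permutation test over the 7 ChIP and 8 input libraries, two-sided, was under 0.05 for 8 of the 15 members, of which 7 had the downstream window higher. These pairs were compared after the values had been seen.

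OR51E2, known as the prostate-specific G protein-coupled receptor, had such a pair. Its downstream window (chr11:4684092-4686092) had 225 reads over the 7 ChIP libraries and 197 over the 8 inputs, for a log2 ratio of 1.33. The upstream windows (chr11:4696853-4698853 and the same 1 base further on) had 78 and 230 reads, for a log2 ratio of -0.41. The log2 of downstream over upstream reads was 1.46 ± 0.495 (SD, n = 7) in ChIP and -0.20 ± 0.265 (SD, n = 8) in input, without overlap between libraries (exact permutation p = 0.000311, the smallest this design allows). The upstream window is also the window of OR51C1P, so the reads of both genes are the same there. Summed over its windows, OR51E2 had a log2 ChIP over input of 0.30 ± 0.14 (SE, adjusted p = 0.0487), and this call was lost when any of 10 of the 14 libraries was left out in turn. Over windows that do not overlap, so that the upstream reads count once, it was 0.51 ± 0.13 (SE, adjusted p = 0.000116). OR51E1, its neighbour, was at 12 to 20.0 CPM in ChIP and 6.49 to 11.9 CPM in input, without overlap (log2 0.66 ± 0.15), and its promoter was the richest in G and C of all members with an entry, at 57.0%.

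**Figure D2:**
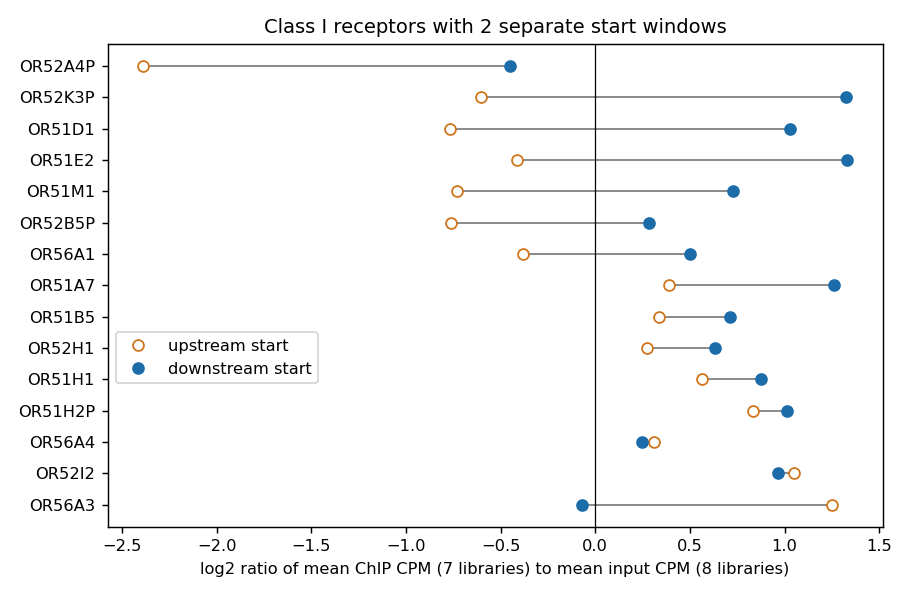
Log2 ratio of mean ChIP CPM (7 libraries) to mean input CPM (8 libraries) at the upstream (open) and downstream (filled) start window of the 15 members with separate windows. The filled point lies to the right in 12 genes, and for OR51E2 the points stand at -0.41 and 1.33.

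OR51D1 had 67 ChIP reads at its upstream window and 189 at the window 2.2 kb downstream, with 253 and 206 in input, so that the log2 ratio went from -0.77 to 1.03. For OR51M1 the log2 ratio was -0.73 upstream and 0.73 downstream, and for OR52A4P -2.39 and -0.45. Each of these pairs had an exact permutation p of 0.000311 with no overlap between ChIP and input libraries. OR52K3P had the longest list of starts, 8 windows. Its 7 upstream windows lie over the start of TRIM21, a ubiquitin ligase and Fc receptor gene on the other strand, with an overlap of 1865 to 1927 bp, and had log2 ratios of -0.70 to -0.57, whereas the downstream window 81.0 kb away was at 1.33 (exact permutation p = 0.000311). These 7 windows overlap each other, so the sum counts the same 64 to 69 ChIP reads 7 times beside the 266 reads of the downstream window. The summed value was -0.16 (adjusted p = 0.273), and over windows that do not overlap it was 0.56 ± 0.12 (SE, adjusted p = 7.78e-06), which turns the direction. OR56A3 went the other way, with 1.25 upstream and -0.07 downstream (exact permutation p = 0.000932), and its upstream window overlaps a start of TRIM5 by 1868 bp.

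At OR52N2 the coding exon is not in the start window. A peak region of 687 bp lay on the coding exon, 12 kb above the start window, and held 125 ChIP reads over 7 libraries, against 26 reads in the whole start window. In input the counts were 84 and 236. A peak region is picked for its reads, so these counts are a description. In an edgeR quasi-likelihood fit of all peak regions, this region had a log2 ChIP over input of 0.06 ± 0.26 (SE, adjusted p = 0.962). The TMM factors of that fit came from the peak regions, so the value is relative to the other regions.

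The members beside the globin genes differed among themselves. OR51AB1P, the nearest member above HBB, was lower in ChIP, as given above. OR51B2, OR51B4 and OR51B6, which lie further above, had log2 ChIP over input of 0.93 ± 0.14, 0.84 ± 0.17 and 0.82 ± 0.16 (SE). OR51B5 was at 0.47 ± 0.13, and its distant start windows, 162.1 kb from the first, are shared with transcripts of HBE1 and HBG2. OR51V1, the nearest member below HBB, was at 0.24 ± 0.21 and did not pass the test (adjusted p = 0.268), and OR52A1, further below, was lower in ChIP, as given above. Between these 2 genes lie OR52Z1P and OR51A1P, with log2 ratios of mean ChIP to mean input CPM of 0.82 and 0.73. With library totals and no TMM, OR51V1 was called at 0.49. Of the 5 globin genes, HBD (log2 0.49), HBG2 (0.67) and HBE1 (0.45) were higher in ChIP, whereas HBB (0.39, adjusted p = 0.127) and HBG1 (-0.05) did not pass.

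Other genes of the interval and other gene lists were set beside the members. Of 34 genes without a receptor name in the same interval, 18 were higher and 4 lower, with a median log2 of 0.39. A chosen list of 7 TRIM genes, which encode ubiquitin ligases that include the antiviral TRIM5 and TRIM22, had 0 higher and 4 lower. These were TRIM3 (-0.91), TRIM68 (-0.39), TRIM22 (-0.39) and TRIM5 (-0.31). TRIM3 lies outside the interval and is not among the 34 genes. Without TRIM and globin genes, 15 of 23 neighbours were higher, with a median of 0.64. Class II receptors on chromosome 11 had 189 of 242 higher and 5 lower, and a median of 0.69, against 0.72 in class I. Of 21 genes of the machinery that serves the receptors in olfactory neurons, 7 were higher and 9 lower, with a median of -0.05. CNGA2 (0.63), the channel subunit opened by cyclic AMP, and EMX2 (0.54), a homeodomain regulator, were higher, GNAL, the olfactory G protein, was at -0.05 (adjusted p = 0.736) and LDB1 (-2.20), a cofactor of LHX2, was lower. OMP, the marker protein of mature olfactory neurons, was lower at -0.55. All these values are relative to the TMM scaling. The differences between lists were not tested.

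**Figure D3:**
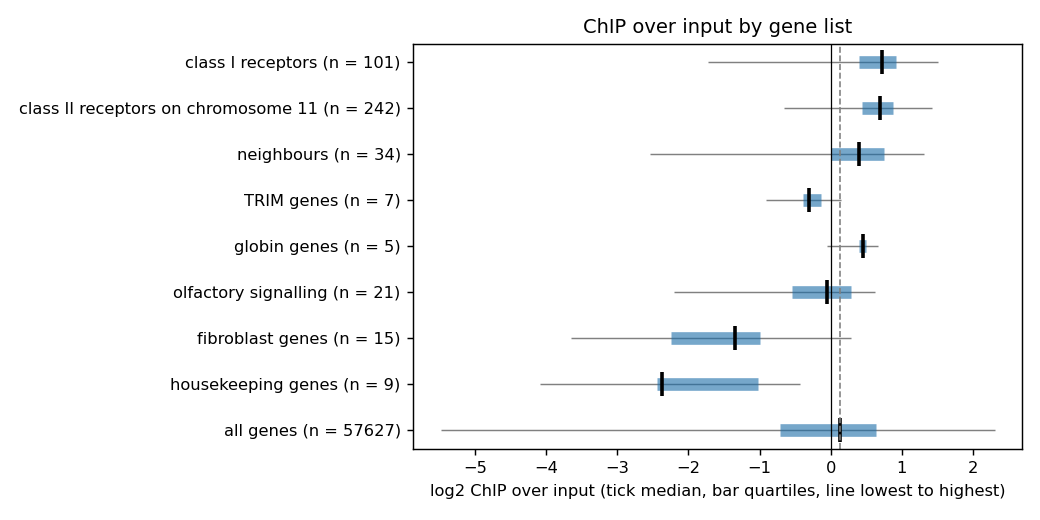
Log2 ChIP over input by gene list, with a tick for the median, a bar for the quartiles and a line from lowest to highest, and the number of genes tested in brackets. Class I (median 0.72) and class II receptors (0.69) lie to the right of all genes (0.13, dashed), and TRIM genes (-0.31), fibroblast genes (-1.34) and housekeeping genes (-2.37) to the left.

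Base composition moved with the level, and its part in the result was not tested. Over 18043 genes with a promoter entry, Spearman's rho between G and C content and ChIP over input was -0.361 across genes, and over 37 members it was -0.266. Genes are not independent replicates, and the points share libraries. In each range of G and C below 50% the members' median was above that of all promoters. Below 35% the median log2 was 0.84 in 8 members and 0.31 in all promoters, from 35% to 40% it was 0.72 in 10 members and 0.29, from 40% to 45% it was 0.73 in 8 members and 0.29, and from 45% to 50% it was 0.48 in 8 members and 0.22. From 50% to 60% there were 3 tested members, OR51E1 at 0.66, OR52K1 at 0.46 and OR52N2, the lowest of all, at -1.73, against a median of -0.38 in all promoters.

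The peak table held 25 regions in the interval. That was 13.6 regions per Mb, against 5.6 per Mb over chromosome 11. The annotation put 8 of the 25 on a coding exon, all of them receptor genes (OR52B4, OR52I2, OR51D1, OR51G1, OR51J1, OR52N2, OR52E8 and OR52B2), whereas 2.4% of all 16092 peak regions lay on exons. Repeats held 9 of the 25, with 4 on LINE and 5 on LTR elements, against 69.6% of all regions. Regions were 516 to 1209 bp wide, and 11 of them met the start window of 10 members. The libraries used for calling peaks are not given in the sources used here.

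The level was then compared between the 4 combinations of genotype and serum. Of the reads over all distinct windows, the members took 1164.6 and 1177.1 CPM, without TMM factors, in the ChIP libraries of wild type in 10% serum, 1184.3 in the 1 library of ΔLEO1 in 10% serum, 1119.8 and 1151 in wild type in 0.1% serum, and 1066.7 and 1096.1 in ΔLEO1 in 0.1% serum. In ChIP, both quiescent groups were below both proliferating groups, and ΔLEO1 was below wild type in 0.1% serum with no overlap. With 2 libraries against 2, an exact permutation test cannot go below p = 0.333. Inputs ranged from 534.4 to 664.5 on the same scale, with means of 550.8 ± 23.1 (SD, n = 2) in wild type 10%, 605 ± 11.1 in ΔLEO1 10%, 647.7 ± 23.8 in wild type 0.1% and 639 ± 5.73 in ΔLEO1 0.1%. The ratio of ChIP to input means therefore went from 2.13 to 1.75 in wild type and from 1.96 to 1.69 in ΔLEO1 between 10% and 0.1% serum, with more of the difference in the input than in the ChIP for wild type.

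**Figure D4:**
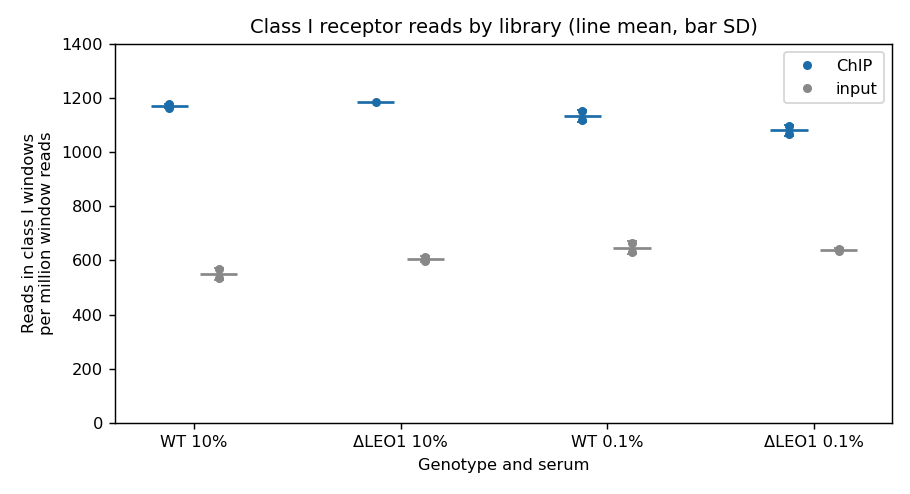
Summed class I window reads in CPM without TMM factors (y axis) for each of the 15 libraries, ChIP in blue and input in grey, with a line for the mean and a bar for the SD of 2 libraries. All ChIP libraries lie between 1066.7 and 1184.3 and all inputs between 534.4 and 664.5.

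By gene, the medians differed between the combinations, which was not tested. In wild type 10% the members had a median log2 ChIP over input of 0.95, with 64 called higher (29.7% of all genes) and 3 lower (27.3%). In ΔLEO1 10%, with its single ChIP library, the median was 0.72, with 31 called higher (14.4% of all genes) and 1 lower (17.1%). In wild type 0.1% it was 0.63, with 50 higher (20.1% of all genes) and 4 lower (23.9%), and in ΔLEO1 0.1% it was 0.48, with 36 higher (19.7% of all genes) and 5 lower (23.8%). The medians of all genes were 0.13, 0.05, 0.09 and 0.13. The counts of calls above are those of edgeR. DESeq2 gave an adjusted p to 101 members in wild type 10%, wild type 0.1% and ΔLEO1 0.1%. It called 38, 16 and 5 of them, higher and lower together, which is fewer in each. How many members are called within a combination therefore depends on the test. ΔLEO1 10% was left out of this comparison of tests because of its single ChIP library. The value was above 0 in all 4 combinations for 80 of 101 members, against 38.6% of all genes. Between combinations, Pearson's r over the 101 members was 0.713 to 0.822, and the combinations share no libraries.

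ΔLEO1 and wild-type cells in 0.1% serum were compared to ask whether loss of LEO1 shifts the mark at these genes in quiescence. Of 98 members tested, 0 were called by edgeR's quasi-likelihood test (0.0113% of all 52966 genes were called) and 0 by DESeq2 (0.325% of the 12917 genes to which it gave an adjusted p). DESeq2 gave an adjusted p to 8 of the 98 members, so the others could not be called by it. In the comparisons of genotype and serum that follow, it gave one to 1 to 31 members, and its count of 0 covers those. An unadjusted p under 0.05 was found for 4 by edgeR, against 10% of all genes, and for 0 by DESeq2, against 2.21%. The median log2 fold change was -0.09 in the members and -0.01 in all genes, with 61 of 98 below 0. Below HBB the median was -0.17, with 39 of 53 members below 0, and above HBB it was 0.03, with 22 of 45 below 0, a difference that was not tested. The SE of a member's log2 fold change was 0.25 to 0.51, with a median of 0.29. Differences of several SE were not called either, as for OR51G2 below, so a missing call does not show that a member was the same in both genotypes. With peak table totals the members' median was 0.19, and that of all genes 0.29, so only the position relative to other genes can be read. Neither scaling can show a shift across all regions.

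OR51G2 had the largest difference, with 10.1 and 7.53 CPM in wild type 0.1% A and B and 3.82 and 4.83 CPM in ΔLEO1 0.1% A and B. The libraries did not overlap, and the log2 fold change was -0.97 ± 0.31 (SE, adjusted p = 0.263). In 10% serum the same gene had 9.58 and 10.1 CPM in wild type and 9.24 CPM in ΔLEO1, with no gap of that size. The inputs of OR51G2 in 0.1% serum did not overlap either, with 6.08 and 4.68 CPM in wild type and 4.44 and 3.57 CPM in ΔLEO1, and with the inputs taken into account the log2 difference was -0.58 ± 0.42 (SE, adjusted p = 0.794). OR51A5P had 9.52 and 8.28 CPM in wild type and 5.46 and 4.42 CPM in ΔLEO1 (log2 -0.76 ± 0.31), and OR51A8P 18.4 and 16.6 CPM against 9.55 and 12.5 CPM (log2 -0.66 ± 0.28), neither called. In OR51A8P the difference was also seen in 10% serum, at 19.2 and 20.2 CPM against 10.2 CPM (log2 -0.90 ± 0.38, adjusted p = 0.506). OR51E1 had 20.0 and 18.8 CPM in wild type and 12 and 12.9 CPM in ΔLEO1 (log2 -0.62 ± 0.28, adjusted p = 0.447). At the other end, OR51E2 had 16.3 and 17 CPM in wild type and 21.0 and 26.9 CPM in ΔLEO1 (log2 0.50 ± 0.27, adjusted p = 0.555). OR51C1P, which shares a window with it (log2 0.49 ± 0.44), and OR52A1 (0.46 ± 0.51) came next. Groups without overlap were found for 22 members with lower and 15 with higher ΔLEO1 values, against 21.1% and 20.1% of all genes.

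**Figure D5:**
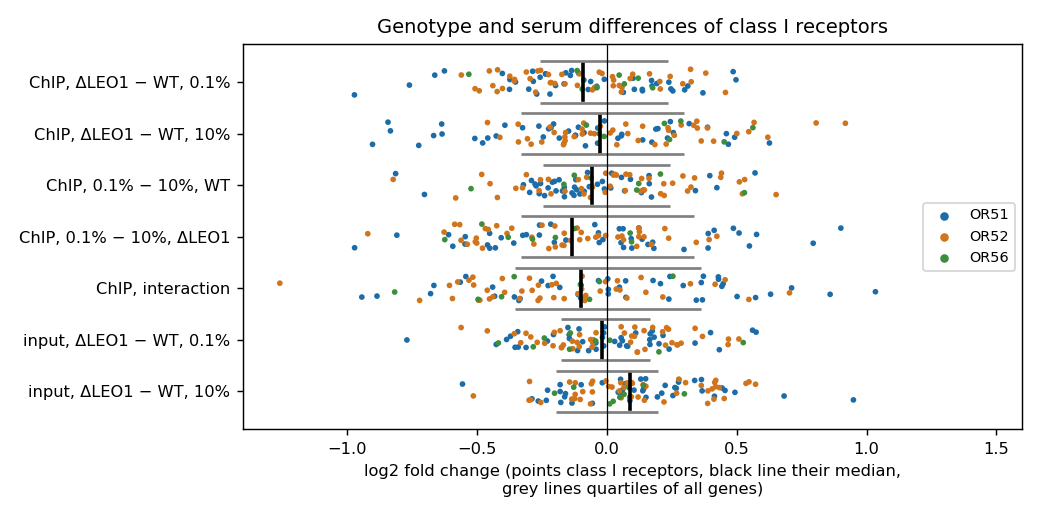
Log2 fold changes of the members (points, coloured by family) in 7 comparisons, with their median in black and the quartiles of all genes in grey. The medians lie between -0.13 and 0.09, inside the quartiles of all genes, and 0 members were called in any of them.

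In 10% serum ΔLEO1 has 1 ChIP library, so this comparison, the interaction and serum in ΔLEO1 take their spread from the other groups and assume that the lone library varies like them. Here 0 of 98 members were called by edgeR (0.00378% of all genes) and 0 by DESeq2 (0.201%), with 3 at an unadjusted p under 0.05 by edgeR (8.74% of all genes) and 0 by DESeq2 (2.31%). The median log2 fold change was -0.03. The interaction of genotype and serum called 0 members by edgeR (0% of all genes) and 0 by DESeq2 (0.046%), with 3 at an unadjusted p under 0.05 by edgeR (5.9% of all genes) and 0 by DESeq2 (1.3%), and its median was -0.10. OR52X1P had the lowest value of it, -1.26 ± 0.48 (SE, adjusted p = 0.751). These 3 members were named after their values were seen, with OR51Q1 at 1.03 and OR51E1 at -0.94.

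Quiescent and proliferating wild-type cells were compared to follow the mark through serum withdrawal. Of 98 members, 0 were called by edgeR (0% of all genes) and 0 by DESeq2 (0.0215%), with 4 at an unadjusted p under 0.05 by edgeR (9.06% of all genes) and 0 by DESeq2 (1.92%). The median log2 fold change was -0.06 in members, -0.12 in OR51 and 0.03 in OR52. OR52H2P had 12.4 and 11.1 CPM in 10% serum and 5.53 and 6.78 CPM in 0.1% serum, with no overlap (log2 -0.82 ± 0.28, adjusted p = 0.379). OR51A2 had 12.8 and 8.74 CPM and then 7.37 and 3.39 CPM (log2 -0.81 ± 0.35). OR51T1 had 21.6 and 28.9 CPM and then 16 and 13.6 CPM (log2 -0.70 ± 0.27). On the higher side, OR52A4P stood at 3.19 and 2.35 CPM in 10% and at 4.30 and 4.90 CPM in 0.1% serum (log2 0.65 ± 0.47, adjusted p = 0.651), followed by OR51B3P (0.57 ± 0.30) and OR52A5 (0.53 ± 0.32). Groups without overlap were found for 31 members with lower and 14 with higher values in 0.1% serum, against 23.7% and 17.1% of all genes. In ΔLEO1, 0 of 98 members were called by edgeR (0.00189% of all genes) and 0 by DESeq2 (0.144%), with 3 at an unadjusted p under 0.05 by edgeR (10% of all genes) and 0 by DESeq2 (2.42%), and the median was -0.13. The comparisons of serum and genotype share libraries.

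The genotypes were also compared with the inputs taken into account, and in the inputs alone. For the difference of ΔLEO1 and wild type in ChIP over input in 0.1% serum, 0 of 101 members were called by edgeR (0.00521% of all genes) and 0 by DESeq2 (0.0652%), with 2, OR51A8P and OR51E1, at an unadjusted p under 0.05 by edgeR (7.71% of all genes) and 0 by DESeq2 (2.94%). The median was -0.14. In the inputs alone, 0 of 101 members were called between genotypes in 0.1% serum (0% of all genes) and in 10% serum (0.00174% of all genes) by edgeR, and 0 by DESeq2 (0% and 0.0173%). The unadjusted p was under 0.05 for 3 and 2 members by edgeR (5.18% and 6.74% of all genes) and for 0 and 1 by DESeq2 (1.55% and 2.44%). Members' input medians were -0.02 in 0.1% and 0.09 in 10% serum, where OR51G2 had 0.95 ± 0.30 (SE, adjusted p = 0.667). Of the 25 peak regions in the interval, 0 were called between genotypes in 0.1% serum by edgeR (0.0621% of all regions, 0.0124% higher and 0.0497% lower) and 0 by DESeq2, with 1 at an unadjusted p under 0.05 by edgeR (8.33% of all regions) and 0 by DESeq2 (1.81%). Their log2 fold changes ran from -0.77 to 0.71, with a median of 0.11 and 15 above 0.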

How the data were processed

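H3K9me2 ChIP and input DNA of BJ-5ta cells were sequenced in 16 libraries, 8 groups of 2. The deposited values are raw counts of reads in start windows and in peak regions, which the authors made after alignment to hg38. The submitters' processing notes name bcl2fastq 2.20.0.422, STAR 2.7.10a and HOMER, and the methods of the study describe csaw and a fly spike-in. Fly reads were not used here, so a shift of the mark over the whole genome cannot be seen.

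Windows with the same coordinates were counted once for a gene and summed, so reads in windows that overlap in part count more than once. Counts were fitted in edgeR 4.0.16 (R 4.3.3, limma 3.58.1) with TMM factors, filterByExpr at a minimum count of 10, a prior count of 2 and the quasi-likelihood F-test. The 7 ChIP libraries were fitted alone for genotype and serum, the 8 inputs alone, and all 15 together for ChIP over input. CPM and the counts of groups without overlap use the TMM factors of the 15 libraries, so they can differ somewhat from the fold changes of the fits alone. Adjusted p-values are Benjamini-Hochberg over all genes tested, called under 0.05. SE is the absolute log2 fold change before shrinkage, divided by the root of F. The log2 fold changes printed are shrunk by the prior count, so SE matches them less well at low counts. The filter left OR56B2P, OR52N2, OR52E5 and OR52N5 out of the ChIP fit. Pairs of start windows were compared by an exact permutation test added after the values had been seen. The fits were also run on simulated counts with the same dispersion for every gene. That checks the code and does not vouch for the calls in these data or for their absence.

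Libraries held 1895572 to 7947289 reads over distinct windows, apart from the library left out. DESeq2 1.42.0, library totals without TMM, totals of the peak table, no filter, a replicate block, non-overlapping windows, the thin library kept and each library left out were the alternatives. A and B were not taken as pairs. The members and lists were chosen with earlier results of these data known. Members named are those called in a comparison (at most 10 by p) and the 5 highest and 5 lowest in ChIP over input. The 3 largest rises and falls by genotype in 0.1% serum and by serum in wild type were also named. OR51E1, OR51E2 and a chosen list near the globin genes were added, and this list left out some nearer members.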

Additional observations from a re-analysis of the deposited data

How the results depend on the processing

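The scaling of ChIP to input sets the sign of the ChIP over input values. With totals of the peak table as library sizes the members' median was -0.86 in place of 0.72, with 0 called higher and 96 lower, and the values were -0.068 for OR51A6P, -0.31 for OR51A9P, -0.64 for OR51B2, -0.73 for OR51B4, -1.16 for OR51B5, -0.76 for OR51B6, -0.56 for OR51C4P, -0.96 for OR51E1, -1.32 for OR51E2, -0.42 for OR51J1, -1.30 for OR51V1, -0.31 for OR52B3P, -0.19 for OR52K2, -0.23 for OR52M2P, -0.21 for OR52P2P, -0.39 for OR52U1P and -0.51 for OR56A5. The median of all genes was then -1.42, and 89 members lay above it. The median was 0.96 without TMM, 0.65 with non-overlapping windows, 0.61 with the thin library kept, and 0.67 to 0.73 with each library left out. Members called were 87 in the fit reported and 72 to 96 in the alternatives.

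With peak table totals the medians were 0.19 for genotype in 0.1% serum, 0.18 for genotype in 10% serum, 0.075 for serum in wild type, 0.087 for serum in ΔLEO1, -0.011 for the interaction, 0.18 for genotype in ChIP over input, -0.053 for genotype in 10% input and -0.16 for the peak regions. With the thin library kept they were -0.11 for genotype in 10% serum, -0.052 for serum in ΔLEO1 and 0.0012 for the interaction, and with non-overlapping windows -0.16 for serum in ΔLEO1. Leaving out each library gave -0.12 to -0.053 for genotype in 0.1% serum, -0.035 to 0.040 in 10% serum, -0.089 to -0.051 for serum in wild type, -0.16 to -0.12 in ΔLEO1, -0.14 to -0.11 for the interaction, -0.17 to -0.066 for genotype in ChIP over input, 0.06 to 0.15 and -0.02 to 0.03 for genotype in 10% and 0.1% input, and -0.085 to 0.25 for the peak regions. The cause of these moves was not tested. In these comparisons 0 members and 0 peak regions were called under every alternative run, but DESeq2 gave an adjusted p to only 1 to 31 members in each. OR52K3P went from -0.16 to 0.56, and was called, with non-overlapping windows. Over all 50773 genes tested, those windows gave 535 calls for genotype in 0.1% serum, against 6 in the fit reported. For serum in wild type they gave 273, against 0. The shares of all genes set beside the members in these comparisons therefore depend on how windows are summed.

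A and B did not deviate together between groups, with correlations of -0.058 to 0.114, of which 1 of 21 was over 0.1. With the replicate block the number of members called did not move in any comparison. Over all genes it went from 6 to 0 for genotype in 0.1% serum, from 2 to 1 in 10% serum and from 1 to 0 for serum in ΔLEO1. The members' median was -0.11 for serum in ΔLEO1 and -0.14 for the interaction. For single named members, 597 of 630 values under the alternatives kept direction and call. Of the others, 17 were reversed, all with peak table totals, 15 lost the call and 1 gained it. The call of OR51E2 was lost without filter (0.29), with DESeq2 (0.22) and with the thin library kept (0.20), and that of OR51B5 with the thin library kept (0.36). Without ΔLEO1 10% ChIP replicate B no value could be had for the comparisons that need that group. The members' median SE was 0.29 for genotype in 0.1% serum, 0.37 in 10% serum and 0.47 for the interaction, and differences near 1 on the log2 scale were not called.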
